A study of Mus musculus with 4 samples.

Results

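The 10 genes described here are transcription factors and marker genes known from the neural crest, with relatives of those factors: Sox10, Sox9, Sox4, Sox11, Foxc1, Id4, En1, Mia, Scrg1 and Nes. They were taken by gene symbol from the count matrices of a single-cell RNA-seq series on mouse mammary tumour formation, and all 10 were found among the 27998 genes that the 4 libraries share. Their RNA was read in cells without a Ptprc UMI, where Ptprc encodes the leukocyte antigen CD45 and a UMI (unique molecular identifier) counts 1 captured RNA molecule. Those cells were split by whether the luminal keratins Krt8 and Krt18 together gave 3 or more UMIs (keratin-positive cells) or fewer (keratin-low cells).

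The female mice were of mixed genetic background and carried Trp53 L/L and Brca1 L/L alleles with a Rosa26-Stop-YFP reporter (R26Y). This genotype was shared by all libraries, so none without the deletions serves as a control. Ad-K8-Cre, an adenovirus in which the keratin 8 promoter drives Cre recombinase, was injected into the ducts, so that recombination was aimed at luminal cells. The library called 2 weeks held sorted YFP+ mammary epithelial cells from about 2 weeks after injection. The library called 5 months held sorted YFP+ cells and CD45+ leukocytes from about 5 months after injection. Both are premalignant by the series title. Tumour 1 and tumour 2 held live DAPI- cells of masses that arose after the same injection, with no stated time and no sort for YFP. The number of mice per library, their age and the ratio of YFP+ to CD45+ cells are not given in the labels.

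In vertebrate embryos, neural crest cells leave the dorsal neural tube, lose epithelial adhesion and give rise to glia, pigment cells and craniofacial cartilage. Sox9 and Sox10 are related DNA-binding factors of that programme: Sox10 directs glial and pigment cell genes, and Sox9 directs cartilage collagen genes. In the mammary gland, both are known from luminal progenitor and basal cells, and Sox10 and Foxc1 are known from basal-like breast tumours.

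Following quality control, 1286, 4487, 2583 and 1740 cells remained in the order 2 weeks, 5 months, tumour 1 and tumour 2, which is the order of all values given without a library name. Of these, 1118, 420, 389 and 412 were keratin-positive, with median depths of 4118.5, 4461.5, 14788 and 8290.5 UMIs. A further 161, 1837, 706 and 614 were keratin-low. Ptprc alone did not free this class of leukocytes: 4.97%, 92.8%, 80.9% and 53.7% of it held more than 2 UMIs over 9 other leukocyte genes. The comparisons therefore used the 153, 132, 135 and 284 keratin-low cells with at most 2 such UMIs, called leukocyte-marker-low, with median depths of 4409, 1623, 7979 and 7231.5 UMIs. The keratin-positive cells had no such limit, so the classes are not alike in it. Of the 389 in tumour 1, 36 with 3 to 9 keratin UMIs and 185 with 10 or more would meet it. Of the 412 in tumour 2, 112 and 217 would. The keratin and leukocyte limits are UMI counts and were not scaled to depth. Ptprc-positive cells served as the background (7, 2230, 1488 and 714 cells). Their keratin UMIs were not limited, so this background can hold doublets as well as RNA free in the suspension. Pairs of libraries shared 2 to 15 cell barcodes, at most 0.581% of the smaller library. The targeted gene Trp53 had 55.9, 34.5, 9.68 and 51.3 CPM (the gene's UMIs scaled to the UMI total of all genes in that library and class) in keratin-positive cells, and Brca1 had 4.23, 0.972, 1.23 and 1.31 CPM. Where the deleted exons lie with respect to the counted 3' ends was not determined, and these levels check nothing about the deletion.

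Of the 5 luminal markers, Krt8 and Krt18 chose the keratin-positive cells. The other 3 were detected there in all 4 libraries: Epcam had 1508, 2353, 296 and 1488 CPM, Krt19 3176, 1341, 165 and 258 CPM and Cldn4 247, 1145, 126 and 887 CPM, each lowest in tumour 1. Defining genes of the peripheral cell types that also use Sox10 were scarce in them. The 6 Schwann cell or glia genes summed to 22.5, 19, 19.4 and 18.6 CPM, and Gfra3 was at 0 in all 4 libraries. The 4 melanocyte genes summed to 1.54 CPM at 2 weeks and had 0 UMIs in the other libraries. The glial sum was highest at 2 weeks, where Sox10 was lowest. The Ptprc-positive background gave glial sums of similar size: 26.6 CPM for 5 months, 18.6 for tumour 1 and 21.3 for tumour 2. At 2 weeks that background held only 7 cells. The order of the glial sums between libraries therefore cannot be read as an order of glial cells, and a glial part in Sox10 was not tested. The 9 leukocyte genes summed to 4.81, 167, 201 and 341 CPM in keratin-positive cells, highest in tumour 2. At least 1 of them was in 1.43%, 32.9%, 84.3% and 65.8% of these cells, highest in tumour 1, which had the deepest cells.

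Sox10 RNA separated the 2 weeks library from the other 3. In keratin-positive cells it had 4.23 (2.65 to 6.4) CPM, with the 95% Poisson interval in parentheses, in the 2 weeks library, 72.9 (61.7 to 85.5) in the 5 months library, 70.4 (64.1 to 77.2) in tumour 1 and 79.8 (71.1 to 89.3) in tumour 2. The intervals of the last 3 overlap, and all lie above that of 2 weeks. The level at 5 months was 17.2 (11 to 28.3) times that at 2 weeks. Tumour 1 had 0.966 (0.801 to 1.17) times the 5 months level and tumour 2 had 1.09 (0.897 to 1.34) times. These intervals hold counting error only, here and throughout.

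**Figure D1:**
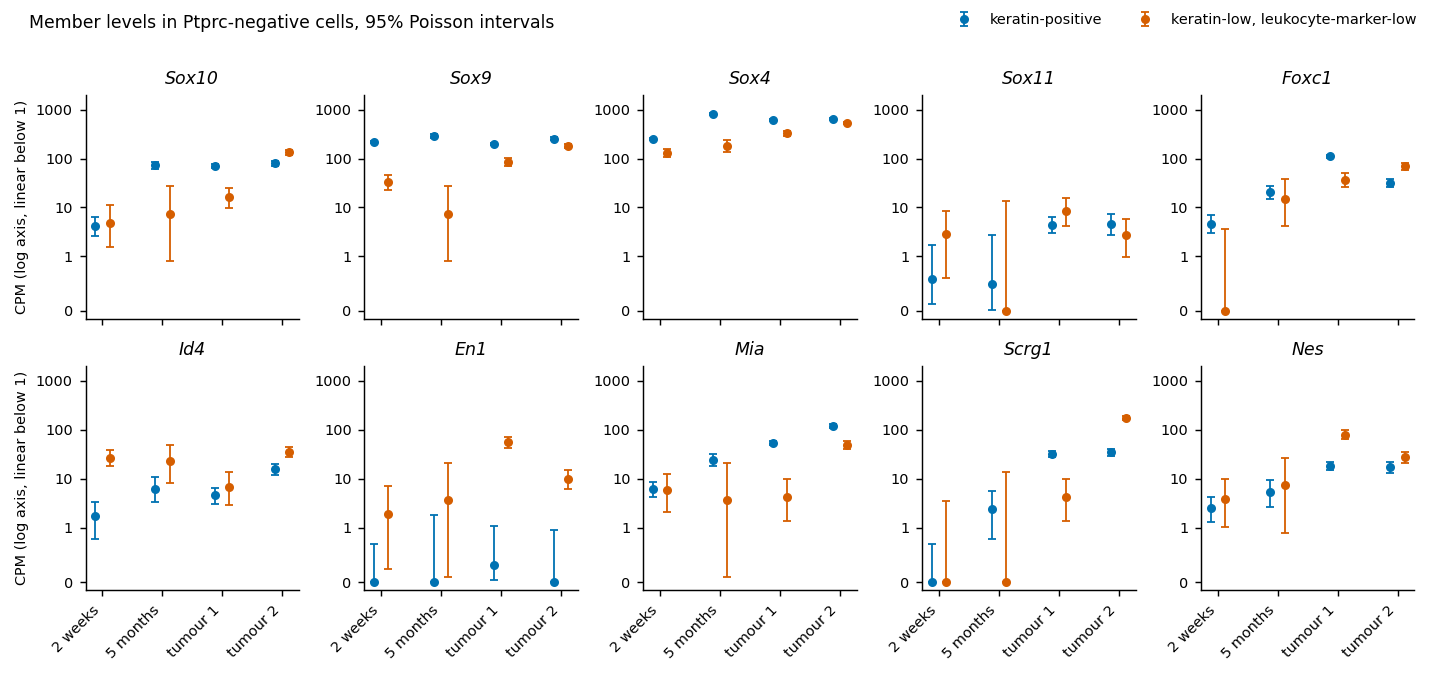
Level of each member in CPM (axis logarithmic above 1 and linear below) by library, in keratin-positive cells and in keratin-low leukocyte-marker-low cells, with 95% Poisson intervals as bars. Sox10 of keratin-positive cells lies at 4.23 CPM at 2 weeks and between 70.4 and 79.8 CPM in the other libraries, while En1 is at or near 0 in keratin-positive cells of all 4.

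The tumours gave a mean Sox10 level of 75.1 CPM ± 6.63 (SD, n = 2). Against 2 weeks, edgeR's quasi-likelihood test gave a log2 difference of 4.23 (SE 0.645, adjusted p = 0.0543), just outside the threshold of 0.05, with both tumours higher. Sox10 passed with DESeq2 (adjusted p = 2.86e-06), and the adjusted p over all alternatives ran from 2.86e-06 to 0.0715. It also passed among keratin-positive cells with at most 2 leukocyte UMIs (adjusted p = 3.80e-04, log2 difference 4.37). The part of leukocyte RNA in the difference was not otherwise tested. Against 5 months the log2 difference was -0.04 (SE 0.501, adjusted p = 0.995). With 1 residual degree of freedom these p-values rest on the spread between the 2 tumours, which the labels do not tie to separate animals, and each lone library is assumed to vary as they do.

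The share of cells with a Sox10 UMI depends on depth. In keratin-positive cells it was 1.79%, 25.5%, 50.4% and 38.1%. Once each cell was thinned to 2000 UMIs it was 1.14% (0.571 to 2.03) in the 2 weeks library, 14.8% (11.4 to 18.7) in the 5 months library, 11.8% (8.79 to 15.5) in tumour 1 and 13.8% (10.6 to 17.6) in tumour 2, with exact binomial 95% intervals. This used 964, 392, 389 and 412 cells and left out 154, 28, 0 and 0 shallower ones. Tumour 1, the library with the deepest cells, led in the unthinned share and not in the thinned one. In Ptprc-positive cells, which should lack Sox10, the thinned share was 0.373% at 5 months, 0.739% in tumour 1 and 2.38% in tumour 2, below the keratin-positive share in each.

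**Figure D2:**
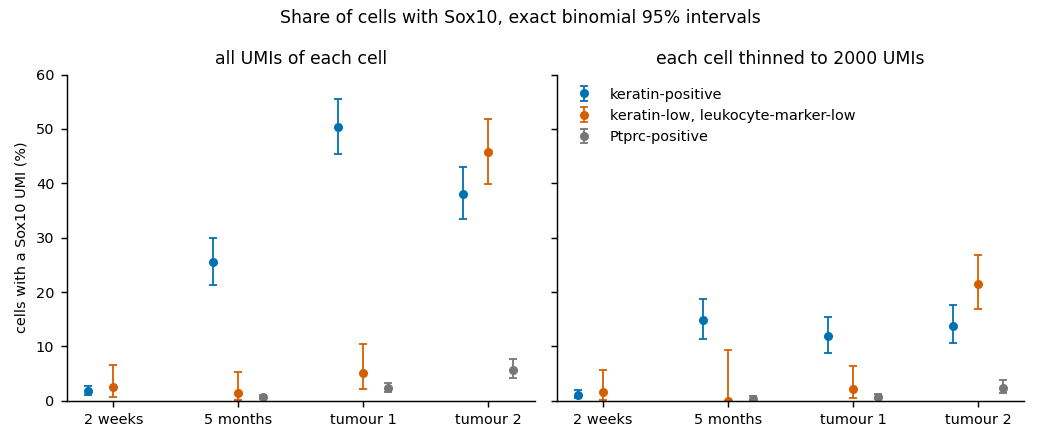
Percent of cells with at least 1 Sox10 UMI by library and cell class, from all UMIs (left) and after thinning each cell to 2000 UMIs (right), with exact binomial 95% intervals and classes of under 20 cells left out. In the right panel keratin-positive cells of 5 months, tumour 1 and tumour 2 stand at 14.8%, 11.8% and 13.8%.

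The few Sox10-positive cells at 2 weeks carried other luminal genes than the rest of their library. Among thinned keratin-positive cells, 7 of the 11 with Sox10 held the milk protein gene Csn3, or 63.6% (30.8 to 89.1), against 11.6% (9.68 to 13.9) of cells without Sox10. The stem cell factor receptor Kit, which marks luminal progenitors, was in 18.2% (2.28 to 51.8) against 0.525% (0.171 to 1.22). The prolactin receptor Prlr was in 0 of 11, which allows a share of up to 28.5% by the exact interval, against 62.3% (59.2 to 65.4). At 5 months Csn3 was in 86.2% (74.6 to 93.9) of cells with Sox10 against 77.8% (73 to 82.2), and Prlr in 6.9% (1.91 to 16.7) against 19.5% (15.4 to 24.1). For both genes the intervals overlap. In tumour 1 Csn3 was in 37% (23.2 to 52.5) against 35.3% (30.2 to 40.6), with overlapping intervals. In tumour 2 the alveolar factor Elf5 was in 15.8% (7.48 to 27.9) of cells with Sox10 against 3.38% (1.76 to 5.83) of those without. The partner genes named here differ between libraries and are part of a longer fixed list. The proliferation gene Mki67 and the cell cycle inhibitor gene Cdkn2a had overlapping intervals in cells with and without Sox10 in both tumours.

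Keratin-positive cells were therefore also divided by the luminal genes they carried, a split added after these values were seen. Cells with a UMI of the progenitor genes Kit, Elf5 or Aldh1a3 and none of the hormone-sensing genes Pgr, Esr1 or Prlr made up 5.64% of keratin-positive cells at 2 weeks (63 cells) and 41.9% at 5 months (176 cells). Cells with hormone-sensing genes alone made up 77.5% (866 cells) and 15.7% (66 cells). The summed levels of these 2 libraries thus came from different mixtures of luminal cells. The subset names stand for detected genes only, and a single UMI suffices. Over all keratin-positive cells the 6 hormone-sensing markers summed to 4550, 646, 694 and 313 CPM. At least 1 of the 7 luminal progenitor or alveolar markers was in 25.9%, 96%, 99.5% and 99.3% of these cells.

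Within progenitor-gene cells Sox10 still differed between the libraries. It had 22.4 (9.01 to 46.1) CPM at 2 weeks and 93.8 (74.5 to 117) at 5 months, a ratio of 4.19 (1.94 to 10.8). Within hormone-sensing cells it had 0.747 (0.154 to 2.18) CPM from 3 UMIs at 2 weeks and 20.3 (8.16 to 41.8) from 7 UMIs at 5 months. Progenitor-gene cells exceeded hormone-sensing cells by a ratio of 30 (6.85 to 179.8) at 2 weeks, from 7 against 3 UMIs, and 4.62 (2.14 to 11.9) at 5 months. The split was made after Kit and Prlr had been seen in the Sox10-positive cells. The 2 weeks ratio thus in part restates those values. Sox10 was thus higher at 5 months in each of these subsets, and higher in progenitor-gene than in hormone-sensing cells in both libraries. Cells with both gene sets had 12.8 (4.17 to 29.9) CPM at 2 weeks and 66.8 (43.2 to 98.6) at 5 months. Cells with neither set had 14.5 (5.84 to 29.9) and 77.8 (54.8 to 107) CPM. These intervals overlap those of the progenitor-gene cells of the same library.

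Foxc1 and Sox4 had ratios near 1 between these libraries in progenitor-gene cells. Foxc1, a forkhead factor of mesenchyme and neural crest, had 25.6 (11.1 to 50.4) CPM in progenitor-gene cells at 2 weeks and 23.2 (14.2 to 35.8) at 5 months, a ratio of 0.905 (0.382 to 2.38). Over all keratin-positive cells that ratio was 4.42 (2.62 to 7.64). Sox4, a factor of many developing and transformed tissues, had 739 (647 to 841) CPM and 783 (725 to 845), a ratio of 1.06 (0.911 to 1.24), beside 3.15 (2.93 to 3.4) over all keratin-positive cells. Sox4 did differ in hormone-sensing cells, with 186 (173 to 199) CPM at 2 weeks and 714 (627 to 809) at 5 months. Mia, from 2 UMIs at 2 weeks, had 6.4 (0.775 to 23.1) CPM in progenitor-gene cells and 33.6 (22.5 to 48.3) at 5 months, a ratio with a wide interval, 5.25 (1.33 to 45.4). Differences between these ratios were not tested.

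**Figure D3:**
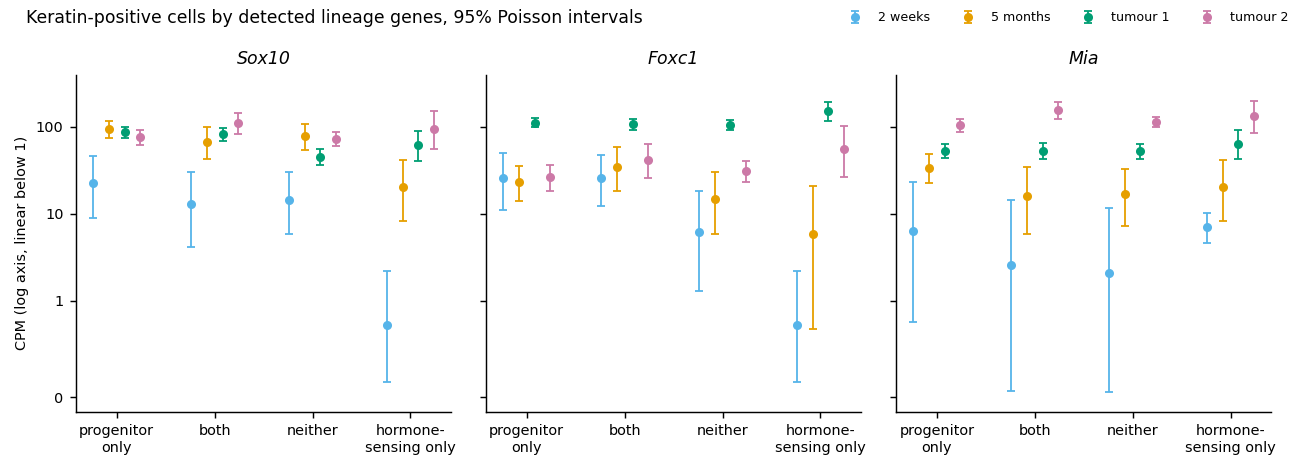
Level of Sox10, Foxc1 and Mia (CPM; axis logarithmic above 1 and linear below) in keratin-positive cells grouped by UMIs of the progenitor genes Kit, Elf5 and Aldh1a3 and of the hormone-sensing genes Pgr, Esr1 and Prlr, with 95% Poisson intervals. In cells with progenitor genes alone Sox10 is at 22.4 CPM at 2 weeks and 93.8 at 5 months, while Foxc1 is at 25.6 and 23.2 CPM.

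In the tumours Sox10 was present in all of these subsets. Tumour 1 had 86.8 (75.1 to 99.9) CPM in progenitor-gene cells, 61.4 (40.8 to 88.7) in hormone-sensing cells and 44.9 (36.3 to 55) in cells with neither set. Tumour 2 had 75.6 (61.7 to 91.6), 94.9 (55.3 to 152) and 72.8 (60.8 to 86.5) CPM. The hormone-sensing subsets held 26 and 22 cells, and their intervals overlap those of the progenitor-gene cells.

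Over all genes, 5 months and 2 weeks were compared as 1 library against 1, with no test. A gene was counted when the higher of its levels, scaled by edgeR's TMM factors, reached 20 CPM and exceeded the lower at least 2-fold, 1 CPM being added to each. This rule took 29.5% of 5814 genes in either direction and 15% as higher at 5 months (873 higher and 844 lower, or 748 and 1064 with library size scaling). Among the 5 members it could judge, 4 were higher at 5 months. Their log2 ratios were 3.92 for Sox10, 2.03 for Foxc1, 1.93 for Mia and 1.77 for Sox4, and Sox9 had 0.51. The other 5 members were under 20 CPM in both libraries.

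Sox9, a progenitor factor of several epithelia, varied less across libraries than Sox10. It had 217 (204 to 229.9) CPM in the 2 weeks library, 286 (263 to 309.8) in the 5 months library, 199 (188 to 210.1) in tumour 1 and 255 (239 to 271) in tumour 2. Its thinned shares were 34%, 31.1%, 31.1% and 31.6%, a spread of a few percentage points. The tumours differed from 2 weeks by 0.15 (SE 0.506, adjusted p = 0.922) in log2. Sox4 had 252 (239 to 266) CPM in the 2 weeks library, 795 (757 to 835) in the 5 months library, 614 (595 to 633) in tumour 1 and 631 (606 to 657) in tumour 2. It was lowest at 2 weeks and highest at 5 months, with the tumours between. Its log2 difference of tumours from 2 weeks, 1.40 (SE 0.532, adjusted p = 0.288), did not pass. Its relative Sox11, a factor of immature neurons, gave only 3, 1, 29 and 18 UMIs.

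Foxc1 was the member on which the tumours lay farthest apart among those that the 2-fold rule could judge. It had 4.61 (2.96 to 6.86) CPM in the 2 weeks library, 20.4 (14.7 to 27.6) in the 5 months library, 111 (103 to 119.7) in tumour 1 and 31.9 (26.5 to 38.1) in tumour 2. The intervals of 5 months and tumour 2 overlap, 2 weeks lies below them and tumour 1 above. Tumour 1 had 3.49 (2.87 to 4.26) times the level of tumour 2. Between the tumours 19.4% of 5756 genes passed the 2-fold rule (694 higher and 421 lower in tumour 1, or 524 and 577 with library size scaling), and 1 of 6 members did, Foxc1 with a log2 ratio of 1.91. Mia lay just outside at -0.98 and passed with library size scaling. Against 2 weeks the Foxc1 log2 difference of the tumours was 4.07 (SE 1.03, adjusted p = 0.14), in which the gap between the tumours enters as spread.

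Id4, an inhibitor of bHLH factors known from mammary basal cells, stayed low in keratin-positive cells, with 1.73 (0.791 to 3.28) CPM, 6.32 (3.36 to 10.8), 4.61 (3.11 to 6.58) and 15.7 (12 to 20.2). Nes, an intermediate filament of neural precursors, had 2.5 (1.33 to 4.27) CPM, 5.35 (2.67 to 9.57), 18.6 (15.4 to 22.2) and 17 (13.1 to 21.7). Both tumours lay above both premalignant libraries for Nes, with intervals that do not overlap. The log2 difference from 2 weeks was 2.91 (SE 0.712, adjusted p = 0.133).

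The secreted or membrane-bound members Mia and Scrg1 were higher in the tumours than at 5 months. Mia, a small secreted protein of cartilage and melanoma cells, had 6.15 (4.21 to 8.68) CPM in the 2 weeks library, 24.3 (18 to 32) in the 5 months library, 53.3 (47.9 to 59.3) in tumour 1 and 117 (107 to 129) in tumour 2. None of these intervals overlap. The tumours differed from 2 weeks by 3.86 (SE 0.768, adjusted p = 0.0906) in log2 and from 5 months by 1.71 (SE 0.68, adjusted p = 0.559), and neither passed.

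Scrg1, known from mesenchymal and cartilage-forming cells, was barely detected before the tumours. It had 0 UMIs in keratin-positive cells at 2 weeks, which allows up to 0.577 CPM at 3 counts. It had 5 UMIs at 5 months, or 2.43 (0.789 to 5.67) CPM, 31.5 (27.3 to 36.1) CPM in tumour 1 and 34.5 (28.9 to 40.9) in tumour 2. Over both tumours Scrg1 was at least 56.6-fold higher than at 2 weeks, with the floor of 3 counts taken in the 2 weeks library. It rose in the edgeR test (adjusted p = 0.0367), higher in 2 of 2 tumours. The call was lost when the highest-scoring doublets were kept (adjusted p = 0.0554), and the alternatives ran from 1.60e-09 to that value. Tumour 1 had 13 (5.47 to 40.4) times the 5 months level and tumour 2 had 14.2 (5.94 to 44.5) times, which did not pass in edgeR (adjusted p = 0.223). In Ptprc-positive cells Scrg1 had 1.43 CPM in tumour 1 and 10.5 in tumour 2, and Mia 2.78 and 15.5, in each case below the keratin-positive level. At 5 months Sox10 thus stood at the level of the tumours, and the Scrg1 level lay below theirs.

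Over all genes the tumours differed from 2 weeks in 0.797% of 12291 genes (46 higher and 52 lower, or 252 and 181 with library size scaling), and 1 of the 9 tested members passed. En1 was not tested, for its low counts. All 9 log2 differences were above 0, with a median of 3.02 beside 0.05 for all genes, and this median is the same with Scrg1 at its bound. A single library can meet the filter on low counts. A member near 0 at 2 weeks could thus be tested only through a library where it was high. The members were also chosen with earlier results of these data known. The count above 0 and the median are therefore description and carry no support. Against 5 months 0.106% of genes passed in edgeR (0 higher and 13 lower, or 19 and 76 with library size scaling), and none of the 9 members did. At an unadjusted p under 0.05, 1067 genes passed there, with Scrg1 and Mia as the members among them. DESeq2 called 132 genes there (1.34%) and no member. The comparisons with 2 weeks and with 5 months share the tumour libraries.

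The members called against 2 weeks depended on the settings. DESeq2 called 4 of 9 (Sox10, Scrg1, Mia and Foxc1), beside 4.28% of all genes. With at most 2 leukocyte UMIs per cell edgeR called 5 of 9, beside 7.19% of all genes. With doublets kept edgeR called 0 of 9, beside 0% of all genes, and 1883 genes had an unadjusted p under 0.05. Against 5 months 1 member passed in edgeR with at most 2 leukocyte UMIs per cell, Scrg1 (adjusted p = 0.0192), beside 2.19% of all genes.

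The RefSeq promoter table (GRCm38.p6) was searched for the SOX-type motifs ACAAAG and ACAATG on both strands, with overlapping matches counted. It matched 7 of the 10 members, without Sox10, Sox9 and Scrg1. None of the 7 windows, from 250 bases before to 50 after the start, holds either motif, whereas 28.6% of 32851 promoters of that length hold at least 1. The letters before the starts of Mia (chr7:27181150-27181399, minus strand) and Foxc1 (chr13:31806396-31806645, plus strand) are shown because these were the matched members that lay past the 2-fold rule with Sox10 at 5 months and had the larger ratios. They run 5′ to 3′ along the strand of the gene and carry no capitals, since no motif was found.
Mia: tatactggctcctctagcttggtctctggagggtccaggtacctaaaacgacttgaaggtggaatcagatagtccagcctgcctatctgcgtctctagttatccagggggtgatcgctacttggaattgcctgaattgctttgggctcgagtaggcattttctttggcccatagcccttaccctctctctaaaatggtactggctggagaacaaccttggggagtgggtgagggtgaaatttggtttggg
Foxc1: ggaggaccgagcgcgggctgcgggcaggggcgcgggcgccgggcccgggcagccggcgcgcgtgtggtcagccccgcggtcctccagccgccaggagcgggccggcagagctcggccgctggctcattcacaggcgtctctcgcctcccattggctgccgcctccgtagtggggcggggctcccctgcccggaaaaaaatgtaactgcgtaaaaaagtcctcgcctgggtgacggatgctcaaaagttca
A missing match says only that these letters are not in this window. In the RefSeq genes of the same build, Sox10 lies at chr15:79154913-79164490, Sox9 at chr11:112782210-112787757, Scrg1 at chr8:57455882-57479360 and En1 at chr1:120602487-120607991.

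The keratin-low cells, as Ptprc and keratins alone define them, held Sox10 mainly in tumour 2. There its level was 95.1 (86 to 105) CPM, beside 4.63 (1.5 to 10.8) at 2 weeks, 1.68 (0.674 to 3.45) at 5 months and 4.59 (2.91 to 6.89) in tumour 1. With leukocyte-marker-bearing cells removed, Sox10 had 4.83 (1.57 to 11.3) CPM, 7.52 (0.911 to 27.2), 16.4 (9.85 to 25.5) and 134 (119 to 149.7). Tumour 2 stayed above tumour 1, with a ratio of 8.17 (5.14 to 13.8). The thinned shares of the leukocyte-marker-low cells were 1.61% (0.196 to 5.7), 0 of 38 cells at 5 months (up to 9.25% by the exact interval), 2.22% (0.461 to 6.36) and 21.5% (16.8 to 26.7). All further values for keratin-low cells are for the leukocyte-marker-low ones.

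The tumours differed in how their keratin-low cells compared with their keratin-positive cells. In tumour 1 Sox10 was lower in keratin-low cells, 16.4 against 70.4 CPM, a ratio of 0.232 (0.139 to 0.367). In tumour 2 it was higher, 134 against 79.8 CPM, a ratio of 1.68 (1.42 to 1.97). Scrg1 had ratios of 0.137 (0.0439 to 0.324) and 5.0 (4.09 to 6.14), and Foxc1 of 0.333 (0.239 to 0.453) and 2.19 (1.71 to 2.79). For these 3 genes the intervals lie on opposite sides of 1. Mia was lower in keratin-low cells of both tumours, with ratios of 0.0807 (0.026 to 0.19) and 0.412 (0.331 to 0.509). Sox9 was lower in both, at 0.428 (0.346 to 0.526) and 0.70 (0.622 to 0.787), as was Sox4, at 0.532 (0.477 to 0.591) and 0.849 (0.792 to 0.911).

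The keratin-low cells of the tumours also differed in their markers. The 7 fibroblast genes, none at 0 in either tumour, summed to 19505 CPM in those of tumour 1 and to 937 in those of tumour 2, with 636 at 2 weeks and 6207 at 5 months. In tumour 1, 129 of the 135 cells held more than 2 UMIs over 16 fibroblast, endothelial and pericyte genes, and in tumour 2, 88 of the 284 did. The other 196 cells of tumour 2 had Sox10 at 154 (135 to 175) CPM, Scrg1 at 198 (176 to 222) and Foxc1 at 75.4 (62 to 90.7). They had 619.7 (580.3 to 661) CPM of Cdkn2a and 166 (145 to 188) of the epithelial adhesion gene Epcam. The 88 stromal-gene cells of tumour 2 had 93.3 (72.7 to 118) CPM of Sox10, 121 (97.6 to 149) of Scrg1 and 441 (395 to 491) of Cdkn2a. The 129 stromal-gene cells of tumour 1 had 10.7 (5.55 to 18.8) CPM of Sox10 and 65.3 (51.2 to 82.1) of Cdkn2a. The remaining 6 cells of tumour 1 gave 160.5 (64.5 to 331) CPM of Sox10 from 7 UMIs. The part of the stromal cells in the opposite ratios was not tested.

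The pooled test of keratin-low against keratin-positive cells, with tumour as a block, passed 1 of the 10 members. Over all genes 3.19% of 10767 passed (270 higher and 74 lower in keratin-low cells). Sox10 differed by -0.56 (SE 0.699, adjusted p = 0.79) in log2, Scrg1 by 0.28 (SE 1.23, adjusted p = 0.943) and Mia by -2.16 (SE 0.579, adjusted p = 0.147). Within single libraries the 2-fold rule took 34.8% of genes in tumour 1 and 12.9% in tumour 2. In tumour 1, 8 of 8 members that it could judge passed, En1 and Nes as higher and Sox10, Sox9, Sox4, Foxc1, Mia and Scrg1 as lower in keratin-low cells. In tumour 2, 4 of 8 passed, Scrg1, Foxc1 and Id4 as higher and Mia as lower.

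En1, a homeobox factor of the midbrain-hindbrain border that also marks a lineage of dermal fibroblasts, was the member that rose. It gave 64 UMIs in keratin-low cells of tumour 1 and 22 in those of tumour 2, which are 55.1 (42.4 to 70.4) and 9.84 (6.16 to 14.9) CPM. Keratin-positive cells gave 2 and 0 UMIs. The edgeR adjusted p was 0.00972, with 2 of 2 tumours higher. The ratio was 179 (47.6 to 1512) in tumour 1 and at least 12.5 in tumour 2. All of these keratin-low UMIs lay in the cells with more than 2 stromal UMIs, in both tumours. Of the 17 thinned cells of tumour 1 with En1, 17 held the collagen gene Col1a1, against 66.9% (57.7 to 75.3) of cells without En1, and 0 held Cdkn2a. With keratin-low cells limited to at most 2 stromal UMIs, an alternative added after the data were seen, 0 of the 9 members tested passed in edgeR and En1 was too low to be tested. There 109 genes were called (1.09%) and 614 had an unadjusted p under 0.05, with Scrg1 and Mia as the members among them, and DESeq2 was not run. Nes was higher in keratin-low cells of tumour 1, at 80.1 against 18.6 CPM, a ratio of 4.3 (3.25 to 5.69), and had a ratio of 1.6 (1.11 to 2.31) in tumour 2.

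**Figure D4:**
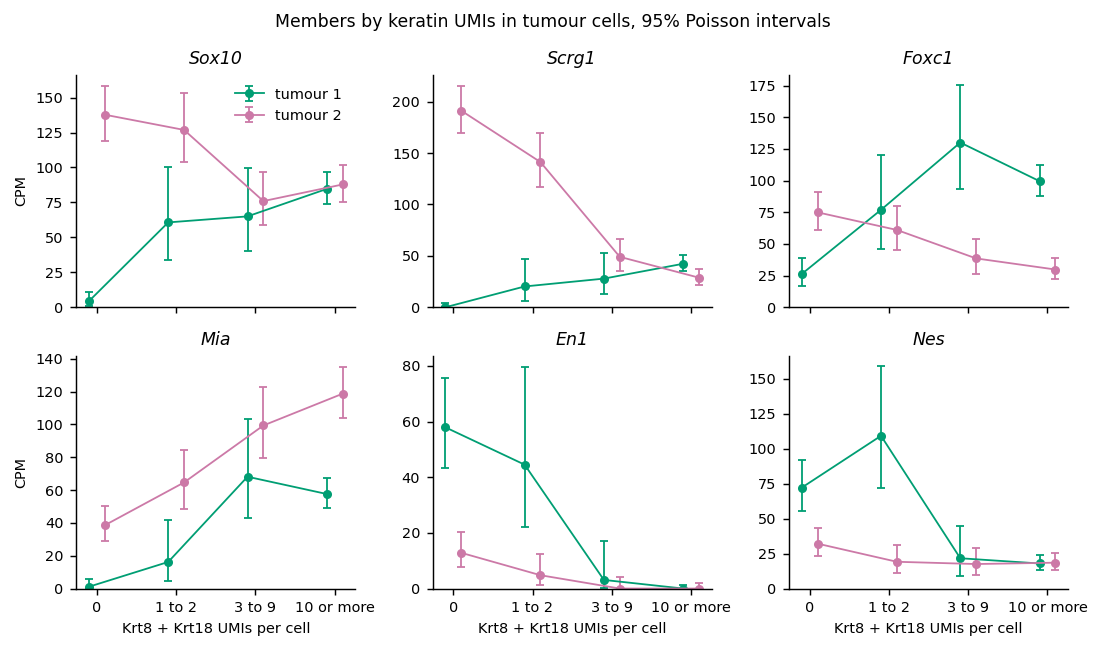
Level of 6 members (CPM, axis from 0) in cells of tumour 1 and tumour 2 with no Ptprc UMI and at most 2 leukocyte gene UMIs, grouped by their Krt8 and Krt18 UMIs, with 95% Poisson intervals. Sox10, Scrg1 and Foxc1 are lowest without keratin UMIs in tumour 1 and highest there in tumour 2, and En1 has 1 UMI among the cells with 3 or more keratin UMIs.

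The pattern also shows with keratin UMIs in 4 steps, from 0 over 1 to 2 and 3 to 9 to 10 or more. Sox10 had 4.37, 60.7, 65 and 84.7 CPM in these steps in tumour 1 and 138, 127, 75.9 and 87.9 CPM in tumour 2. Scrg1 had 0, 20.2, 27.9 and 42.3 CPM in tumour 1 and 191, 141, 49.1 and 28.8 CPM in tumour 2. The cells with 1 to 2 keratin UMIs numbered 24 and 99. In tumour 1 both genes were highest in the cells with 10 or more keratin UMIs, and in tumour 2 in the cells with 0.

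In the premalignant libraries the 2-fold rule between the classes took 44.0% of genes at 2 weeks and 40.0% at 5 months. At 2 weeks 2 of 3 members passed: Sox9 was lower in keratin-low cells (32.8 against 217 CPM), and Id4 was higher (27 against 1.73 CPM). Those keratin-low cells had 1029 CPM summed over the 7 basal markers, none at 0, compared with 143 CPM in keratin-positive cells. At 5 months 5 of 6 passed, with Sox10, Sox9, Sox4 and Mia lower and Id4 higher in keratin-low cells, where Sox10 rested on 2 UMIs. Whether the class difference itself differed between premalignant libraries and tumours was tested as an interaction with library as a block. It passed in 0.0267% of 11240 genes and in 0 of the 10 members in edgeR, where 949 genes had an unadjusted p under 0.05. Of the members Sox9 alone did (log2 difference 2.73, SE 0.793, adjusted p = 0.438 in edgeR). DESeq2 was not run on the interaction.

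Where at least 5 thinned cells held both genes of a pair, co-detection lay mostly near the product of their shares. Over 45 pairs, 4 libraries and both classes, 64 of 360 combinations had at least 5 thinned cells with both genes, with a median ratio to the product of 1.11. The ratio was at least 1.5 in 14 of the 64 and at most 1 over 1.5 in 1. The limit of 5 was set on the cells with both genes. It leaves out combinations with few such cells, so the median and this split lean towards higher ratios. In keratin-positive cells Sox10 and Sox9 were together in 16, 15 and 16 cells at 5 months, in tumour 1 and in tumour 2, where the product gives 18.1, 14.3 and 18. Sox10 and Mia were together in 1, 7 and 12 cells, where it gives 3.55, 5.08 and 8.58. At 2 weeks, 8 of the 11 cells with Sox10 held Sox4 and 7 held Sox9, where the product gives 3.14 and 3.74. In tumour 1 Sox9 and Foxc1 were together in 30 cells, where it gives 19.6.

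**Figure D5:**
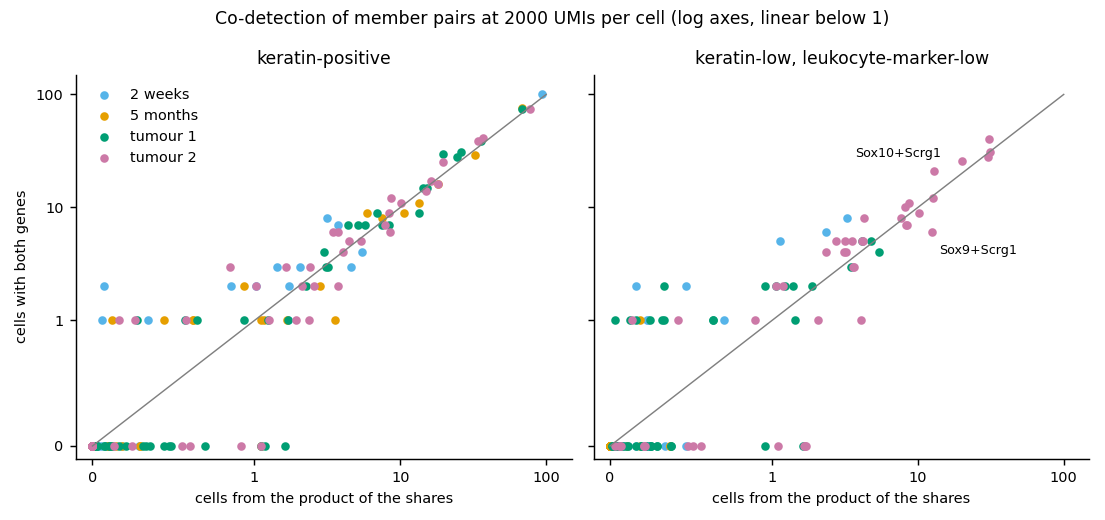
Cells with both genes of a pair (vertical axis) against the number that the product of their shares gives (horizontal axis; both logarithmic above 1 and linear below), at 2000 UMIs per cell, for all 45 member pairs in 4 libraries, with a grey line of equality. In keratin-low cells of tumour 2, Sox10 with Scrg1 lies above the line (21 cells against 12.9) and Sox9 with Scrg1 below it (6 against 12.5).

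In keratin-low cells of tumour 2, Scrg1 was in a larger share of cells with Sox10 than without, and in a smaller share of cells with Sox9 than without. It was in 34.4% (22.7 to 47.7) of cells with Sox10 and 17.5% (12.7 to 23.1) of cells without. It was in 10.2% (3.82 to 20.8) of cells with Sox9 and 24% (18.6 to 30.1) of cells without. The intervals overlap in both contrasts. Sox9 with Scrg1 was the 1 of the 64 combinations at most 1 over 1.5, so it is the extreme of many. Col1a1 was in 1.64% (0.0415 to 8.8) of the cells with Sox10 and 13% (8.89 to 18.1) of those without. These counts are sparse, come from 1 library and carry no test.

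At least 2 of the 10 members were found in 11.8%, 33.4%, 43.7% and 42% of thinned keratin-positive cells, and at least 3 in 1.14%, 4.59%, 13.9% and 10.4%. In keratin-low cells of tumour 2 the shares were 46.1% and 19.4%, and in those of tumour 1 18.5% and 3.7%. Ptprc-positive cells had at least 2 in 1.19% at 5 months, 1.08% in tumour 1 and 4.2% in tumour 2.

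Other neural crest genes did not share one direction. Of 16 neural crest specifiers 13 were tested, and in the tumours against 2 weeks 0 rose and 2 fell in edgeR, with a median log2 difference of 2.14. At an unadjusted p under 0.05 there were 7, beside 1910 of 12291 genes in edgeR. DESeq2 called 3 higher (Snai1, Sox5 and Twist1) and the same 2 lower, beside 4.28% of all genes. Msx2, a homeobox factor, had 108 CPM at 2 weeks, 2.43 at 5 months and 0 UMIs in both tumours, at least 373-fold lower with 3 counts over both tumours as the floor (adjusted p = 0.0321, edgeR). Tfap2b, an AP-2 factor, had 79.2, 18.5, 0 and 0 CPM, at least 273-fold lower (adjusted p = 0.0337). Both had been 2-fold lower at 5 months, where Tfap2c (11.7 and 83.6 CPM) and Ets1 (24 and 45.7 CPM) were higher, so 4 of the 5 that the rule could judge passed, beside 29.5% of all genes. Snai1, a repressor of E-cadherin, had 0.769, 14.6, 18.1 and 27.5 CPM and did not pass against 2 weeks (adjusted p = 0.0644). Between the tumours the 2-fold rule took 4 of 6, beside 19.4% of all genes. Pax3 (0.461 and 39 CPM), Tfap2c (13.2 and 86.8 CPM) and Ets1 (20.3 and 51.5 CPM) were lower in tumour 1, and Sox5 (44.7 and 12 CPM) was higher.

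Of the 14 Sox10 target, glial and pigment genes, 9 were tested against 2 weeks and 0 passed in edgeR, with 7 above 0 and a median of 2.99. At an unadjusted p under 0.05 there were 5, beside 1910 of 12291 genes in edgeR. DESeq2 called 1, Col9a3, beside 4.28% of all genes. By the 2-fold rule at 5 months 2 of 2 passed, beside 29.5% of all genes: the collagen gene Col9a3 was higher (6.54 and 32.1 CPM) and the neuregulin receptor Erbb3 lower (72.7 and 28.2 CPM). In keratin-low tumour cells the endothelin receptor Ednrb rose, with 67.2 against 0.307 CPM in tumour 1 and 9.84 against 0.262 in tumour 2 (adjusted p = 0.013, edgeR).

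Of the 12 cartilage genes known as Sox9 targets, 11 were listed and 8 tested. All 8 lay above 0 in the tumours against 2 weeks, with a median of 6.63, and 1 rose in edgeR. As with the members, a gene near 0 at 2 weeks could be tested only through a library where it was high. The lists were also chosen with earlier results known. The counts above 0 and the medians of the 4 lists are therefore description and carry no support. At an unadjusted p under 0.05 there were 8, beside 1910 of 12291 genes in edgeR. DESeq2 called 3 as higher (Col9a1, Col11a1 and Col9a2), beside 4.28% of all genes in either direction. Col9a1, a collagen IX chain, had 1.92, 20.9, 204 and 102 CPM, a log2 difference of 6.40 (SE 0.916, adjusted p = 0.0447). Col2a1, the main cartilage collagen, had 0 UMIs at 2 weeks and at 5 months, 96.5 CPM in tumour 1 and 17 in tumour 2, at least 116-fold higher over both tumours than at 2 weeks. It did not pass (adjusted p = 0.0935). Sox9 itself lay between 199 and 286 CPM in these cells. In keratin-low tumour cells Col27a1 (adjusted p = 0.0452) and Col11a2 (adjusted p = 0.0499) rose. Against 5 months none of the 4 lists had a gene past the edgeR test. DESeq2 called Col9a1 and Col11a1 as higher and Tfap2b as lower there, beside 1.34% of all genes. In edgeR 11 distinct genes of the 4 lists had an unadjusted p under 0.05 there, beside 1067 of 12291 genes. The specifier, glial and pigment, cartilage and other lists had 13, 9, 8 and 10 genes tested.

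Of 15 other Sox, Id and Fox genes 10 were tested against 2 weeks and 0 passed in edgeR, with a median of 1.48. At an unadjusted p under 0.05 there were 4, beside 1910 of 12291 genes in edgeR. DESeq2 called Id1 and Foxq1 as higher, beside 4.28% of all genes in either direction. At 5 months the 2-fold rule, which took 15% of all genes as higher, took 3 of 5 as higher: Id1 (2.88 and 50.5 CPM), Foxq1 (3.84 and 55.9 CPM) and Id2 (34.8 and 181 CPM). In keratin-low tumour cells the endothelial factor Sox7 rose and Foxq1 fell (adjusted p = 0.0419 for each in edgeR). The fibroblast and endothelial gene sums of these cells differed between the tumours as well, at 699 and 171 CPM for the 5 endothelial genes, and their part in the calls of Ednrb, Col27a1, Col11a2 and Sox7 was not tested.

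The genes whose levels ran most like those of Sox10 were ranked over 11 profiles of library and class with at least 20 cells, among 8960 genes, by Pearson's r of log2(CPM + 1). The 5 closest were Itga8 (r = 0.958), Nhsl1 (r = 0.949), Gm15867 (r = 0.941), Hrct1 (r = 0.934) and Srebf1 (0.934), a regulator of lipid synthesis. Mia ranked 25 (0.904) and Scrg1 47 (0.866). Itga8, an integrin chain, had 1.92, 19.9, 37.4 and 34.5 CPM in keratin-positive cells. The profiles share libraries and depth, so the correlation describes them and carries no test.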

How the data were processed

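Single-cell RNA was counted in 4 libraries from the Chromium 3' version 2 chemistry, as the labels state. The authors deposited UMI counts per gene and barcode, and the submitters' processing notes name Cell Ranger and mm10 (GRCm38), with the version not given in the sources used here. From these, cells with 500 or more genes and no more than 10% mitochondrial UMIs were retained. Scrublet (scanpy 1.11.5) marked only 4, 0, 0 and 8 doublets, too few to trust, and the 15, 181, 57 and 25 highest scores were removed instead (0.8% per 1000 barcodes). UMIs were summed per library and class, and edgeR 4.0.16 (filterByExpr, TMM, quasi-likelihood F test, Benjamini-Hochberg adjustment over all genes, threshold 0.05) compared the sums, with DESeq2 1.42.0 as an alternative. Groups came from the sample titles, and only the tumours are replicates, so comparisons of 1 library with 1 carry no test. On simulated counts for tumours against 2 weeks (11820 genes) the fit called 56 of 195 changed genes and 3 unchanged ones, and for keratin-low against keratin-positive cells (10434 genes) 99 of 193 and 1. Intervals at 95% are Poisson for CPM, exact conditional for ratios and Clopper-Pearson for shares, and limits for 0 counts use 3. The genes named are the 10 members, up to 6 genes of each list with the largest change past the test or the 2-fold rule, fixed partner genes in cells with and without a member, and the 5 genes most like Sox10. Snai1, Col2a1, genes named as called by DESeq2 and the split by progenitor and hormone-sensing genes were chosen after their values were seen. Members and lists were chosen with earlier results of these data known.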

Additional observations from a re-analysis of the deposited data

How the results depend on the processing

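Between 2 weeks, 5 months and tumours, no paired analysis was possible because the labels tie no libraries to the same mouse. The comparisons of keratin classes hold the library as a block throughout. Counts of genes past the adjusted threshold depended on the settings, by over 1.5 times in the following. Tumours against 2 weeks (98 genes) gave 433 with library size scaling, 1239 without the filter on low counts, 628 with at least 1 keratin UMI, 0 with doublets kept, 45 with at least 1000 genes per cell, 825 with at most 2 leukocyte UMIs and 495 with DESeq2. Tumours against 5 months (13 genes) gave 95, 565, 97, 0, 0, 251 and 132 in that order. With doublets kept, 1883 and 1017 genes had an unadjusted p under 0.05, and 1034 had with at least 1000 genes in tumours against 5 months. Keratin-low against keratin-positive cells (344 genes) gave 1309 without the filter, 828 with at least 1 keratin UMI, 1076 with all keratin-low cells, 541 with 0 leukocyte UMIs, 575 with all 4 libraries, 603 with DESeq2 and 109 with at most 2 stromal UMIs. The interaction (3 genes) gave 169 without the filter, an alternative chosen after seeing the data like the limit on stromal UMIs. The causes were not tested.

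Log2 differences that turned sign were all of members that did not pass in the main comparison. Sox10 in tumours against 5 months was 0.0422 with library size scaling, 0.0218 without the filter, 0.16 with at least 1 keratin UMI, 0.00625 with all barcodes, 0.0393 with at least 1000 genes and 0.0956 with at most 2 leukocyte UMIs. Between the keratin classes Scrg1 was -0.0447 with at least 1 keratin UMI, -0.74 with all keratin-low cells, -0.0881 with at most 10 leukocyte UMIs, -0.13 with all 4 libraries and -0.0671 with DESeq2. Sox11 was -0.48 and -0.0335 with at least 1 and 10 keratin UMIs, -0.54 with all keratin-low cells, -0.92 with 0 leukocyte UMIs and -0.33 with at most 2 stromal UMIs. Id4 was -0.0556 with all keratin-low cells. With at most 2 stromal UMIs, which left 6 cells in tumour 1, Sox10 was 0.77, Sox9 0.19 and Foxc1 0.49.

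Leaving out either tumour left no residual degrees of freedom in these comparisons and gives values with no test. Against 2 weeks Sox10 then ran from 4.19 to 4.27 and Foxc1 from 2.82 to 4.72 in log2. Between the keratin classes Sox10 ran from -2.07 to 0.69, Scrg1 from -2.83 to 2.26 and En1 from 7.37 to 7.87. The interaction was not refitted without a tumour. Scaling by library size in place of TMM shifted the median of all genes from -0.07 to -0.21 for 5 months against 2 weeks and from 0.09 to -0.07 for tumour 1 against tumour 2.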
